A study of Mus musculus with 5 samples.

Results

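Receptor chains, signal transducers and feedback inhibitors of interleukin-13 (IL-13) and related cytokine signalling were followed on 5 Affymetrix mouse expression arrays. The members were 10 listed genes, Il4ra, Il13ra1, Il13ra2, Il2rg, Stat6, Jak3, Socs1, Socs3, Cish and Bcl6. They were found by taking each probe set whose platform annotation gives exactly 1 gene symbol and where that symbol is a listed gene. Such a set consists of short oligonucleotides that together read 1 transcript. The rule found 11 probe sets of 9 genes among 12422 probe sets of 8251 named genes. No probe set was found for Il2rg, which encodes the common gamma chain. One more probe set is annotated to both Jak3 and Insl3, so it was not taken for either gene.

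RNA labelled as murine lung came from A-J mice that received either saline or IL-13 through the trachea, and the series concerns the goblet cells, which secrete airway mucus. Saline was given for 2 arrays (title numbers 6 and 48) and IL-13 for 3 arrays (title numbers 6, 18 and 48). The titles state no unit for these numbers, so each array is called here by its treatment and its title number. No combination of treatment and title number has a second array, and the labels do not state the age of the mice, a dose, or whether animals were pooled, so every p-value refers only to the spread between these arrays.

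IL-13 binds Il13ra1 first and then recruits Il4ra, the chain shared with the receptor for interleukin-4. Janus kinases attached to these chains phosphorylate Stat6, which pairs, enters the nucleus and switches on genes of mucus, chemokines and alternative macrophage activation. Il13ra2 binds IL-13 very tightly and has a short cytoplasmic tail, and it is known mainly as a decoy. The SOCS proteins, with Cish among them, are made in response to cytokines and dampen the receptors and kinases that induced them, and Bcl6 is a repressor whose DNA motif resembles that of Stat6.

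STAT proteins bind palindromes of the form TTCNNNGAA, and Stat6 also binds a longer form with 4 free bases in the middle in place of 3. Both forms read the same on either strand. They were searched for in the RefSeq promoter table (GRCm38.p6, 250 bases before to 50 after a transcript start), which holds 11 promoters of the 10 members. The shorter form lay in 4 of these 11, those of Cish, Socs3 and both promoters of Bcl6, against 8.3% of all 32851 promoters in the table. The longer form was found in 0 of the 11, against 6.95% of all promoters. The matches are shown because they fall in feedback genes and in the repressor, with the match in capitals and each sequence written along the strand of the gene.
Cish, chr9:107296654-107296683, plus strand, 2 matches that begin at bases 1 and 12 of the transcript: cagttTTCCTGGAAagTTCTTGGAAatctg
Socs3, chr11:117969502-117969530, minus strand, 154 bases before the start: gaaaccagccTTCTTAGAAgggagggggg
Bcl6, first promoter, chr16:23988952-23988980, minus strand, 118 bases before the start: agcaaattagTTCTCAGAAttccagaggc
Bcl6, second promoter, chr16:23981433-23981461, minus strand, 168 bases before the start: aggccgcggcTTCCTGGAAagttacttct
Bcl6, second promoter, chr16:23981387-23981415, minus strand, 122 bases before the start: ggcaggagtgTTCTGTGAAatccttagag
Bcl6, second promoter, chr16:23981353-23981381, minus strand, 88 bases before the start: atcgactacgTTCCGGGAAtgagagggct
These letters are a description of the windows and not evidence of binding. The windows of Socs1, Stat6, Jak3, Il4ra, Il13ra1, Il13ra2 and Il2rg held neither form.

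Values are the deposited intensities on a linear scale, after a last scaling that moved no array by more than 0.1%. The test took in the 7811 probe sets that exceeded 210 on 2 arrays or more, and 9 member probe sets of 8 genes were among them. The arrays were not alike in what tissue they held. The club cell gene Scgb1a1 was bright on all 5 (22019 to 31029), whereas Sftpc, the defining gene of alveolar type II cells, read 17169 on IL-13 18, 2617 on saline 6 and 194.2 to 300.4 on the other 3. Saline 6 carried transcripts of salivary gland: the 6 markers summed to 97811 there and to 524.5 to 657.6 elsewhere. The log2 differences of tested members are therefore also given without saline 6, and those of other single genes are not.

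With limma, 1 probe set was called higher after IL-13 (0.0128% of 7811) and 3 lower (0.0384%) at an adjusted p under 0.05, and 0 of the 9 tested member probe sets were among them. At an unadjusted p under 0.05, 1 of the 9 passed (Socs1), against 9.26% of all probe sets. Every IL-13 value exceeded the higher saline value for 2 of the 9, both of Socs3, against 14.7% of all. Every IL-13 value was under the lower saline value for another 2, Il4ra and Socs1, against 11.0%. The remaining 5, of Il13ra1, Stat6, Jak3, Cish and Bcl6, overlapped between treatments. A single probe set compared by an exact rank-sum test over 2 against 3 arrays cannot reach a two-sided p below 0.2, so no such test is given.

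**Figure D1:**
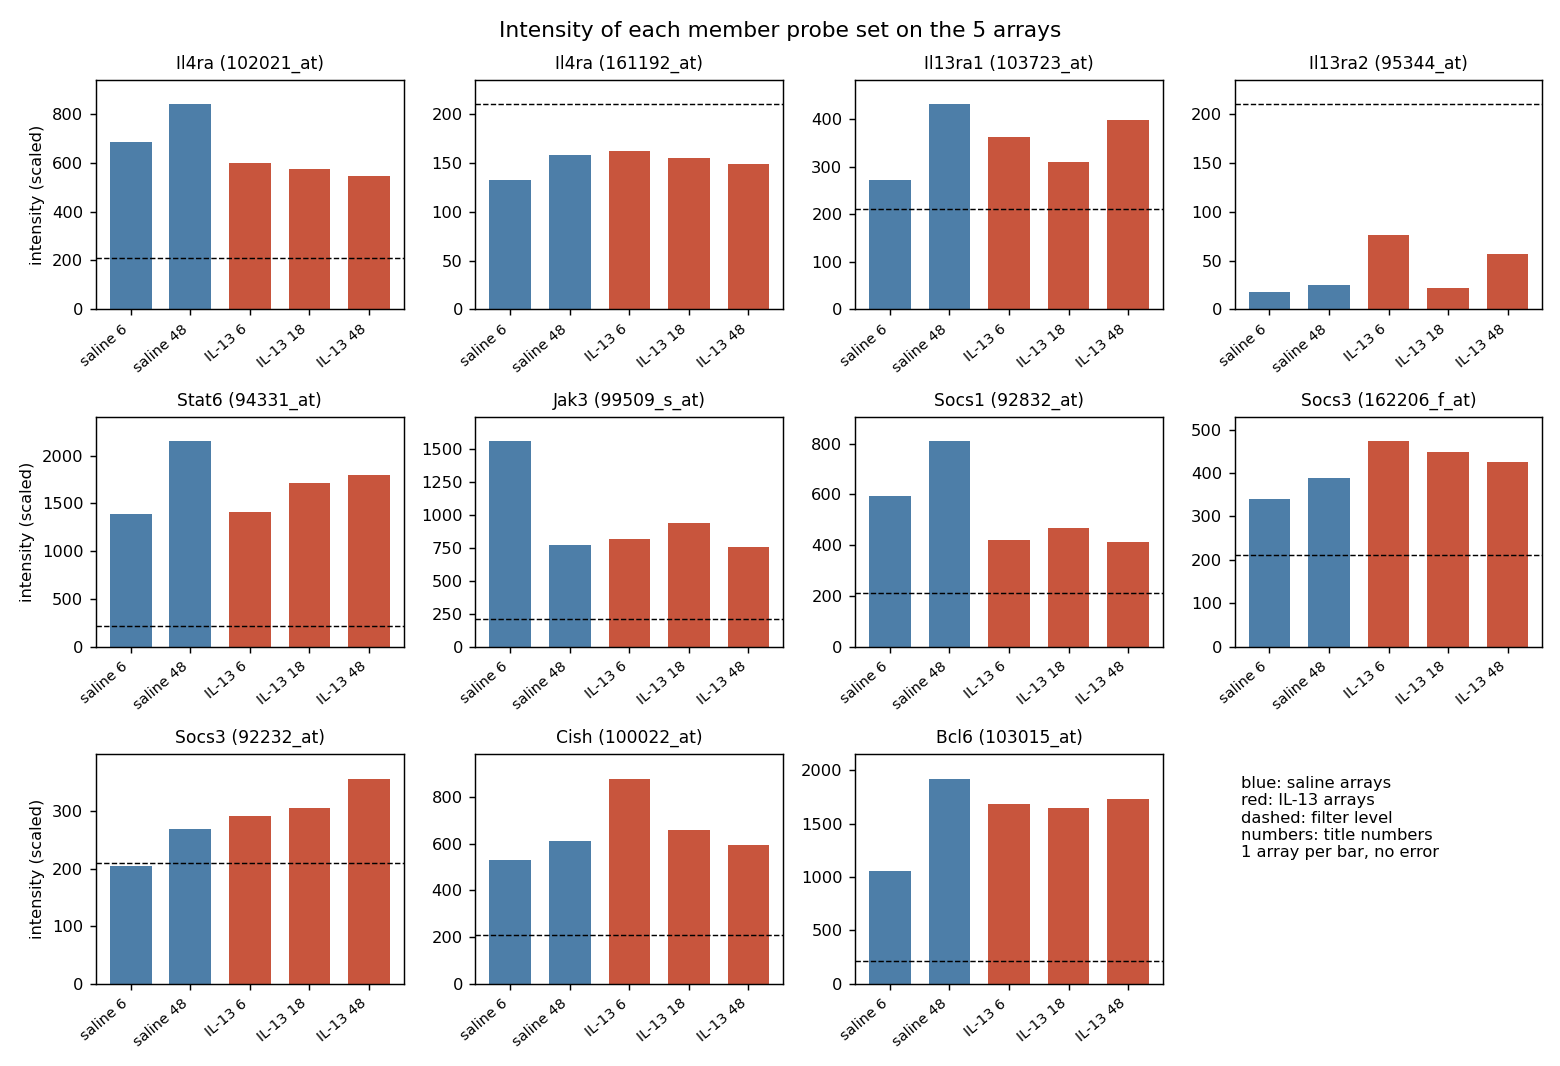
Scaled intensity (vertical axis, linear, from 0, its own range in each panel) of the 11 member probe sets on the 2 saline arrays (blue) and the 3 IL-13 arrays (red), with the filter level of 210 dashed. Each bar is 1 array and so has no error bar. Socs1 and the brighter Il4ra probe set read lower on every IL-13 array than on either saline array, both Socs3 probe sets read higher, and Jak3 stands out on saline 6 alone.

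Il4ra encodes the receptor chain that IL-13 and interleukin-4 share. Its probe set 102021_at read 684.1 (saline 6) and 838.1 (saline 48), against 599.3 (IL-13 6), 572.7 (IL-13 18) and 544.9 (IL-13 48). All 3 IL-13 values lay below both saline values, the nearest by 1.14-fold, while the saline arrays themselves differed by 1.23-fold. The log2 difference of IL-13 minus saline was -0.40 (SE 0.18, 95% interval -0.83 to 0.02, limma adjusted p 0.560). It was -0.55 without saline 6 and -0.26 without saline 48. The other Il4ra probe set, 161192_at, did not show this order. It stayed between 132.9 (saline 6) and 162.8 (IL-13 6), under the level needed for testing.

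Il13ra1 encodes the chain that first binds IL-13. It read 271.6 (saline 6) and 430.7 (saline 48), against 362.6 (IL-13 6), 309.7 (IL-13 18) and 396.9 (IL-13 48). The IL-13 arrays all fell between the saline arrays, which were 1.59-fold apart. The log2 difference was 0.05 (SE 0.25, 95% interval -0.54 to 0.65, limma adjusted p 0.959) and changed sign, to -0.28, without saline 6. The interval spans ratios of IL-13 over saline from 0.686 to 1.57, so these arrays do not settle the direction. A change within that range would be compatible with them.

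Il13ra2, the decoy receptor, was dim on every array. It read 17.98 (saline 6) and 24.89 (saline 48), against 75.95 (IL-13 6), 22.39 (IL-13 18) and 56.90 (IL-13 48). Only IL-13 6 and IL-13 48 exceeded 55.3, the level below which values were treated as unresolved, and both exceeded the saline arrays, while IL-13 18 did not. IL-13 6 was at least 1.37-fold above saline 6 and IL-13 48 at least 1.03-fold above saline 48, as lower bounds, since both saline arrays lay below that level. The probe set did not reach 210 on any array and was not tested.

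Stat6 encodes the transcription factor that carries the signal of these receptors to the nucleus. It read 1386 (saline 6) and 2150 (saline 48), against 1408 (IL-13 6), 1713 (IL-13 18) and 1801 (IL-13 48). Both arrays of title number 6 lay below the other 3, and Stat6 was the only one of the 9 tested member probe sets with this order, against 15.8% of all probe sets. The opposite order was found for 0 of the 9, against 11.0% of all. By treatment the log2 difference was -0.08 (SE 0.24, 95% interval -0.67 to 0.50, limma adjusted p 0.934). It was -0.40 without saline 6 and changed sign, to 0.23, without saline 48, the array with the highest value.

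Jak3 encodes the kinase that pairs with the common gamma chain, mainly in lymphocytes. Its probe set 99509_s_at, of a type whose probes may be shared with other transcripts, read 1555 (saline 6) and 768.3 (saline 48), against 818.6 (IL-13 6), 934.2 (IL-13 18) and 758.4 (IL-13 48). Saline 6 was 2.02-fold above saline 48, and saline 48 lay within the range of the IL-13 arrays. The log2 difference of -0.39 (SE 0.31, limma adjusted p 0.752) became 0.12 without saline 6. Among probe sets of other named genes, the profiles at the smallest Euclidean distance from Jak3, over 5 centred log2 values, were those of the ion channel gene Hcn2 (0.14) and of Rogdi (0.16). Hcn2 read 2741 on saline 6 and 1382 to 1615 on the other 4 arrays, and Rogdi read 2051 and 1140 to 1359. The markers of salivary gland were high on the same array, and so were those of B cells, whose 5 markers summed to 7896 there and to 979.6 to 2680 elsewhere. The part of either in the Jak3 value was not tested. The probe set annotated to both Jak3 and Insl3 was dim, from 8.75 on IL-13 18 to 90.32 on IL-13 48.

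Socs1 encodes an inhibitor that binds and blocks Janus kinases and restrains signalling by interferons and interleukin-4. It read 594.8 (saline 6) and 808.7 (saline 48), against 421.9 (IL-13 6), 466.9 (IL-13 18) and 411.0 (IL-13 48). The lower saline array was 1.27-fold above the highest IL-13 array, and the 3 IL-13 arrays lay within 1.14-fold of each other. The log2 difference was -0.68 (SE 0.20, 95% interval -1.16 to -0.20), a mean 1.60-fold lower level, with an unadjusted limma p of 0.0124. It did not pass after adjustment over all probe sets (limma adjusted p 0.430), and 2.88% of those had a smaller p. Without saline 6 the difference was -0.90, and without saline 48 it was -0.46.

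Markers of T cells, in which Socs1 is known to be active, had the same order of treatments. The 13 markers on the array summed to 16310 on saline 6 and 19977 on saline 48, against 6053 (IL-13 6), 10679 (IL-13 18) and 5265 (IL-13 48). For 12 of the 13, each IL-13 value was under both saline values, beside 11.0% of all tested probe sets. None of the 13 was below 55.3 on all 5 arrays. The 6 markers of immature thymocytes summed to 6576 and 11546 with saline and to 1873, 5234 and 1757 with IL-13, of which Satb1 alone gave 3687 and 7292 with saline and 989 (IL-13 6), 2392 (IL-13 18) and 869 (IL-13 48). Each IL-13 value was under both saline values for 3 of these 6, and for Ccr9, Dntt and Rag2 IL-13 18 exceeded saline 6. The mean T cell sum was 2.47-fold higher with saline than with IL-13. In the sums of both groups of markers and in Socs1, saline 48 was the highest array and IL-13 48 the lowest. In bulk RNA fewer cells of a type, less RNA per cell and an unlike share of tissues taken with the sample cannot be told apart. The part of T cells in the values of Socs1 and Il4ra was not tested.

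Socs3 encodes a related inhibitor that binds receptors using the gp130 chain. Its probe set 92232_at read 205.2 (saline 6) and 268.2 (saline 48), against 291.5 (IL-13 6), 305.2 (IL-13 18) and 356.6 (IL-13 48). The second, 162206_f_at, an f_at set whose probes can fit several members of a family, read 341.1, 388.5, 473.0, 447.6 and 425.1 in the same order. On both probe sets every IL-13 array exceeded both saline arrays, by at least 1.09-fold, though the order among the IL-13 arrays was opposite between them. The log2 difference was 0.43 (SE 0.20, 95% interval -0.05 to 0.91, limma adjusted p 0.581) on 92232_at. It was 0.30 (SE 0.17, 95% interval -0.10 to 0.70, limma adjusted p 0.647) on 162206_f_at, so neither passed. Without saline 6 the differences were 0.24 and 0.21. The probe sets read 1 gene on the same RNA and are not independent of each other.

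Cish encodes an inhibitor best known as a feedback target of Stat5. It read 528.5 (saline 6) and 611.9 (saline 48), against 879.3 (IL-13 6), 656.8 (IL-13 18) and 595.6 (IL-13 48). IL-13 6 was the highest array, and IL-13 48 lay between the saline arrays. The log2 difference was 0.30 (SE 0.22, 95% interval -0.23 to 0.83, limma adjusted p 0.729). It was 0.14 without IL-13 6 and 0.20 without saline 6.

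Bcl6 encodes the transcriptional repressor of germinal centre B cells and follicular helper T cells. It read 1061 (saline 6) and 1924 (saline 48), against 1689 (IL-13 6), 1652 (IL-13 18) and 1729 (IL-13 48). The 3 IL-13 arrays agree within 1.05-fold and lay between the saline arrays, which were 1.81-fold apart. The log2 difference was 0.24 (SE 0.27, 95% interval -0.40 to 0.89, limma adjusted p 0.816) and changed sign, to -0.19, without saline 6. Markers of B cells summed to 7896 on saline 6 and 1170 on saline 48, and to 980 to 2680 on the IL-13 arrays. Those of T cells summed to 16310 on saline 6 and 19977 on saline 48, and to 5265 to 10679 on the IL-13 arrays. The part of either in the Bcl6 values was not tested.

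**Figure D2:**
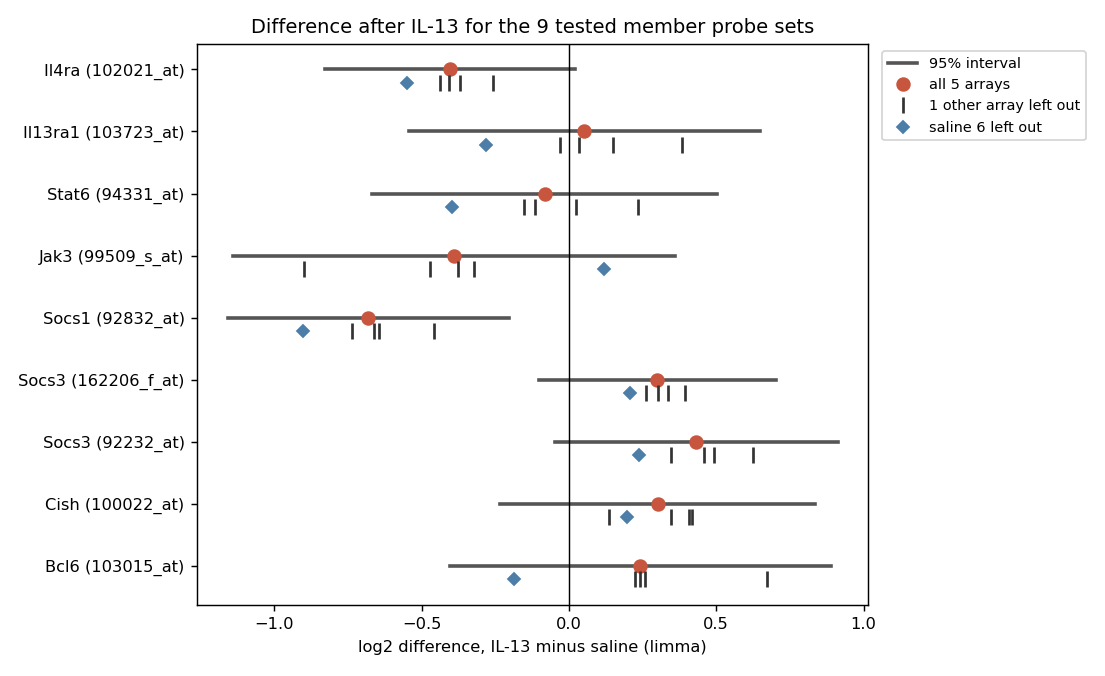
The log2 difference of IL-13 minus saline (horizontal axis) of the 9 tested member probe sets, over all 5 arrays (red) with its 95% limma interval (grey), and again with saline 6 (blue) or each other array (black ticks) left out. Only the interval of Socs1 (-1.16 to -0.20) lies on one side of 0, and the estimates of Il13ra1, Stat6, Jak3 and Bcl6 cross 0 when 1 array is left out.

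Saline 6 was the lowest of the 5 arrays for 6 of the 9 tested member probe sets, those of Il13ra1, Stat6, Socs3 (both), Cish and Bcl6, against 32.0% of all probe sets. This count was made after the values were seen. The saline arrays differed by 1.14-fold to 2.02-fold over the 9, where the median of all tested probe sets was 1.23-fold. The IL-13 arrays differed among themselves by 1.05-fold (Bcl6) to 1.48-fold (Cish).

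Within the matched title numbers, 1 array stands against 1 and there is no test. At title number 6, 0 of the 9 member probe sets were at least 2-fold higher with IL-13 (2.88% of all tested) and 0 at least 2-fold lower (3.15%). At title number 48, 0 were at least 2-fold higher (0.935%) and 0 lower (1.69%). The nearest to 2-fold were Socs1 at 48, where IL-13 48 read 0.508 of saline 48, and Jak3 at 6, where IL-13 6 read 0.527 of saline 6. Cish was 1.66-fold and Bcl6 1.59-fold higher with IL-13 at 6, and they read 0.973 and 0.899 of saline at 48. Socs1 was lower in both pairs, at 0.709 of saline at 6, and so was Il4ra, at 0.876 and 0.650. Socs3 was higher in both, 1.42-fold and 1.33-fold on 92232_at and 1.39-fold and 1.09-fold on 162206_f_at.

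**Figure D3:**
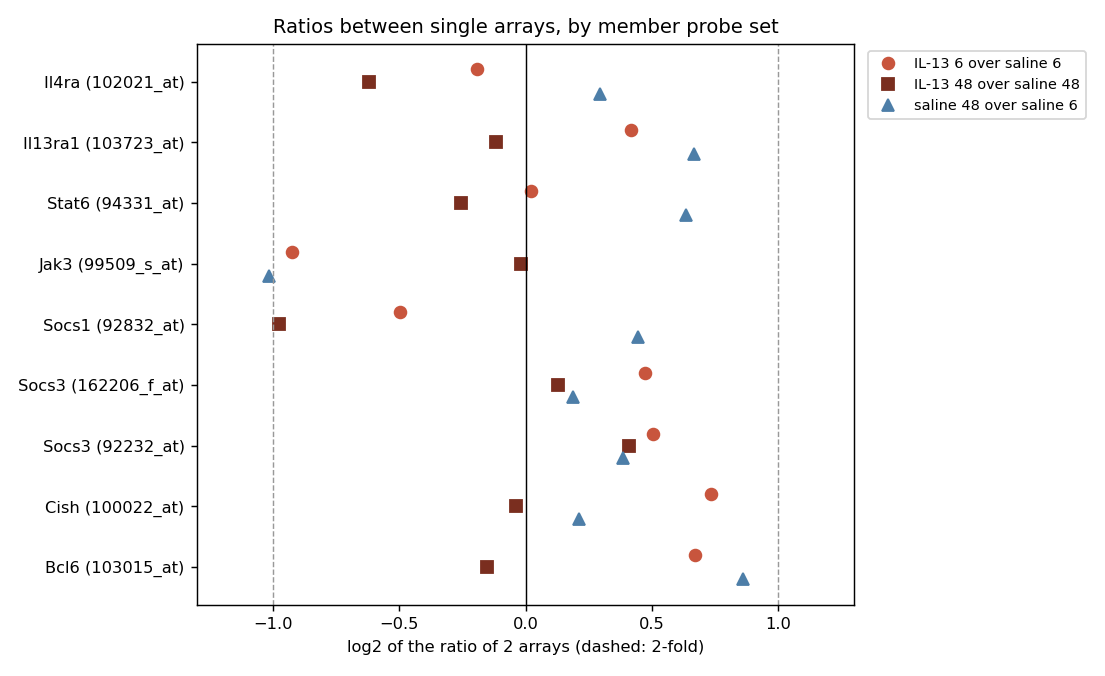
Log2 ratios of single arrays (horizontal axis) for the 9 tested member probe sets: IL-13 6 over saline 6 (circles), IL-13 48 over saline 48 (squares) and saline 48 over saline 6 (triangles), with 2-fold dashed. Every matched ratio stays inside 2-fold. For Il13ra1, Stat6, Jak3 and Bcl6 the ratio of the 2 saline arrays is further from 0 than either matched ratio.

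Other genes of the JAK and STAT pathway were read from a list of 48, of which 40 were on the array and 24 had a tested probe set. None passed the limma test in either direction (lowest adjusted p 0.183). At an unadjusted limma p under 0.05 there were 5, all lower after IL-13, beside 9.26% of all tested probe sets in either direction. The median log2 difference of the 24 was -0.21, beside 0.04 for all tested probe sets, with 7 higher and 17 lower means. These are the genes that passed the filter, and the list's median was -0.051 with no filter. Every IL-13 value was under the lower saline value for 9 of the 24, beside 11.0% of all tested probe sets. Every IL-13 value was over the higher saline value for 1, beside 14.7% of all. The lower ones included genes of blood cells. Il7r, the interleukin-7 receptor chain of lymphocytes, read 460.5 (saline 6) and 335.9 (saline 48), against 149.3 (IL-13 6), 162.9 (IL-13 18) and 141.8 (IL-13 48), which is a log2 difference of -1.38 (SE 0.20). Ptprc, the pan-leukocyte phosphatase CD45, differed by -1.05 (SE 0.23) and by -0.80 on a second tested probe set. Il7r and this second Ptprc probe set exceeded the filter level only on the saline arrays, so they were tested through their saline values alone. A filter of this kind favours a lower IL-13 reading for them. The brighter Ptprc probe set exceeded the filter level on every array.

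Ptpn6, a phosphatase of blood cells, differed by -0.95 (SE 0.28, limma adjusted p 0.432). Ptpn1 and Ptpn2, phosphatases known to act on Janus kinases and STAT proteins, differed by -0.62 (SE 0.25, limma adjusted p 0.531) and -0.49 (SE 0.16, limma adjusted p 0.488). None of these passed, and for each of them no IL-13 array reached the lower saline array. T cell markers were lower on the same arrays, as given for Socs1, and their part in these differences was not tested. Gata3, the transcription factor of T helper 2 cells, differed by -0.60 (SE 0.34) with overlapping arrays. Socs5, another SOCS family member, was the only gene of the list above both saline arrays on every IL-13 array, at 368.4 (saline 6) and 298.5 (saline 48), against 401.7 (IL-13 6), 656.6 (IL-13 18) and 464.2 (IL-13 48). Its log2 difference was 0.58 (SE 0.25, limma adjusted p 0.560).

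The Janus kinases that serve the IL-13 receptor did not pass the test. Jak1 read 2493 (saline 6) and 2647 (saline 48), against 1918 (IL-13 6), 2015 (IL-13 18) and 2463 (IL-13 48), a log2 difference of -0.28 (SE 0.18) with no overlap of arrays. Jak2 differed by -0.16 (SE 0.17) and Tyk2 by -0.07 (SE 0.72), with overlap, and Tyk2 varied from 76.19 to 403.9 between the saline arrays alone. The cytokine genes themselves were dim. Il13 read 13.41 to 43.50, the 4 probe sets of Il4 stayed at or below 84.52, and neither gene was tested.

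**Figure D4:**
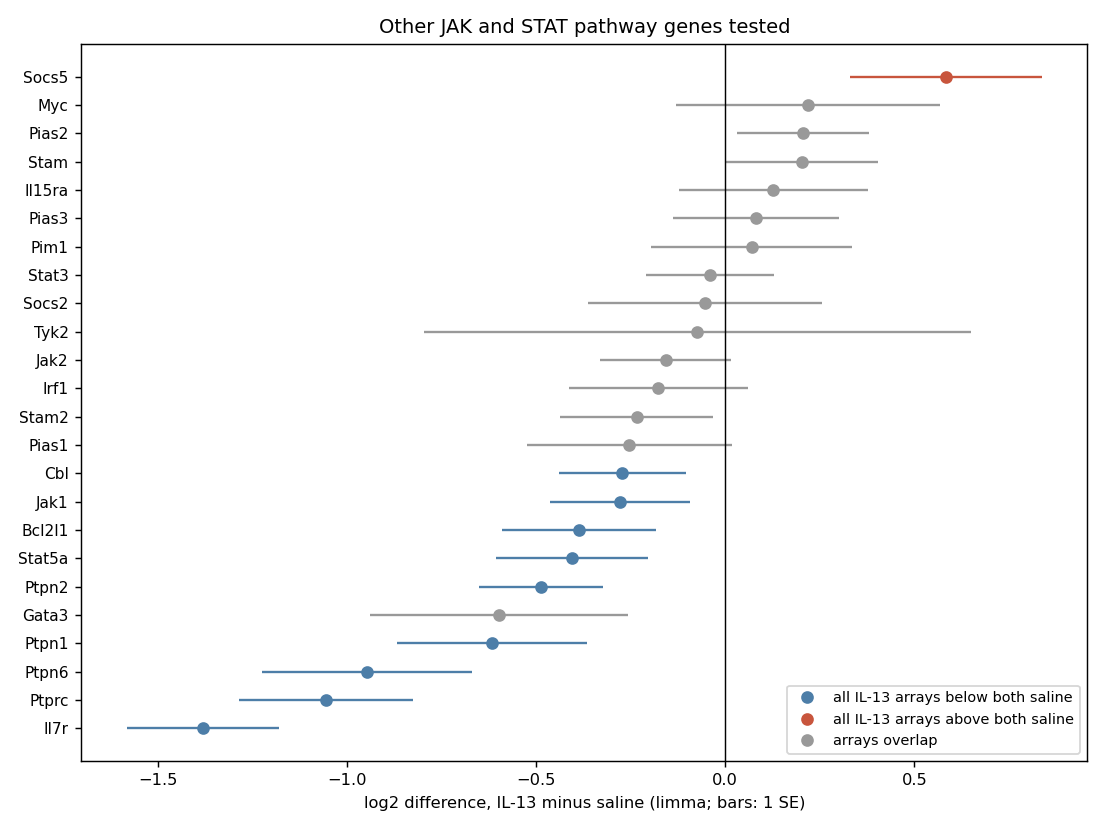
The log2 difference of IL-13 minus saline (horizontal axis, bars 1 SE from limma) for the 24 tested genes of the JAK and STAT list that are not members, sorted by size. Il7r (-1.38), Ptprc (-1.05) and Ptpn6 (-0.95) lie lowest and Socs5 (0.58) highest, and colours show whether the 3 IL-13 arrays lay below both saline arrays (blue), above both (red) or overlapped (grey).

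Genes known to respond to IL-13 or interleukin-4 were read beside the pathway, as a check that the treated arrays carried a response. Of 25 listed genes, 19 were on the array and 18 were tested, with a median log2 difference of 0.86 against 0.04 for all tested probe sets and with 13 higher and 5 lower means. None passed over all probe sets in either direction (lowest limma adjusted p 0.183). At an unadjusted limma p under 0.05, 8 were higher and 0 lower, beside 9.26% of all tested probe sets in either direction. For 9 of the 18 every IL-13 array exceeded both saline arrays, beside 14.7% of all. The largest log2 differences were in Clca1, a secreted protein of goblet cells (4.67, SE 0.90), Chil3, a chitinase-like protein of macrophages (4.39, SE 0.69), and Fcgbp, a mucus protein (1.83, SE 0.26). Agr2, which helps fold mucins, differed by 1.39 (SE 0.35) and the eosinophil chemokine Ccl11 by 1.40 (SE 0.58). Clca1 read 3120 on saline 6 and 284.6 on saline 48, against 21505 (IL-13 6), 29062 (IL-13 18) and 22000 (IL-13 48). Other probe sets of Clca1 and Agr2 stayed under 210 and were not tested. They did not exceed both saline arrays on every IL-13 array, whereas a second probe set of Fcgbp differed by 1.88. Of the 5 genes with a lower mean, the chitinase gene Chia1 had the difference furthest from 0 (-1.69, SE 1.96), and it read 20448 on saline 6 and 185.5 on saline 48. This list was written with earlier results of these data known, so its direction is no independent evidence. Among the members the log2 difference furthest from 0, that of Socs1, was -0.68. Eosinophil markers gave no signal to set beside these, since 0 of the 4 on the array exceeded 210 on any array.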

How the data were processed

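The deposited table holds intensity on a linear scale for 12488 probe sets on 5 arrays of total RNA. Its software and background correction are not stated in the labels or the table. After 66 manufacturer controls were left out, 10833 probe sets had 1 symbol in the platform annotation, 396 several and 1193 none, and 10817 were renamed through the gene number with the RefSeq table (GRCm38.p6).

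Arrays were set to one 2% trimmed mean (factors 0.99951 to 1.00085), values under the pooled 20th percentile (55.3) were raised to it before log2, and 210 is the pooled 40th percentile. IL-13 was compared with saline by limma 3.58.1 under R 4.3.3 (lmFit, eBayes, 3 residual and 3.46 prior degrees of freedom, two-sided, Benjamini-Hochberg over 7811). Single-array ratios counted at 2-fold if the higher value exceeded the pooled median (343). Each gene of a list is read by its brightest probe set, among tested ones for differences. The text names all member probe sets and, of each other list, the 6 genes with the largest differences. Ptpn2, Jak1, Jak2, Tyk2, Il13 and Il4 were named for their role after values were seen. Members and lists were chosen with earlier results of these data known. Alternatives varied scaling, floor, filter, variance moderation, title number as a block and arrays left out. The number of arrays limits precision. Figures used matplotlib 3.10.9.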

Additional observations from a re-analysis of the deposited data

Results flagged for a closer look

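The ratio of IL-13 over saline pointed in opposite directions at title numbers 6 and 48 for 4 of the 9 tested member probe sets. The share of all tested probe sets with opposite ratios was not counted, so this number has no background beside it. On the log2 scale the ratio at 48 minus the ratio at 6 was -0.82 for Bcl6, -0.77 for Cish, -0.53 for Il13ra1 and -0.28 for Stat6. In each of these the ratio was above 1 at 6 and below 1 at 48. Each ratio rests on 1 array against 1, so whether the pairs differ was not tested. Saline 6 was the lowest of the 5 arrays for all 4 of these genes, so a ratio above 1 at 6 follows from that order. For Il13ra1, Stat6 and Bcl6 saline 48 was also the highest array, so a ratio below 1 at 48 follows too.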

How the results depend on the processing

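Over 123 refits of the 9 member probe sets, 116 kept their direction and stayed above the threshold of 0.05, and the lowest adjusted p of limma was 0.174. Il4ra, Socs1, Cish and both Socs3 probe sets kept their direction throughout. The 7 changes of sign were in Il13ra1 (-0.0036 with quantile normalization, and -0.28 to 0.38 over the arrays left out in turn), Stat6 (-0.40 to 0.23), Jak3 (-0.90 to 0.12) and Bcl6 (-0.19 to 0.67). Socs1 ranged from -0.90 to -0.46. Over all probe sets, the 1 higher call became 0 with quantile normalization, a filter at the 60th percentile, either other floor, no filter, or trend and robust settings. The 3 lower calls became 1 with the filter at the 60th percentile and 0 with either other floor, no filter, or trend and robust settings. With title number as a replicate block over 4 arrays both counts were 0, and Socs1 stood at -0.74 (adjusted p 0.558). Same-numbered arrays deviated together weakly (r 0.13 over probe sets, with only 2 pairs), and the titles do not say that a number marks a shared batch. Leaving out 1 array gave 0 to 3 higher and 0 to 7 lower, the highest of each without saline 48. Where limma made 0 calls, 450 to 1086 probe sets had an unadjusted p under 0.05. The median of the JAK and STAT list lay between -0.24 and -0.14 with 1 array left out. It was -0.051 with no filter, which brings in the dim genes of the list, and the median of the IL-13 target list was 1.19 with the filter at the 60th percentile. At 1.5-fold, 2 member probe sets were higher and 1 lower at title number 6, and 2 were lower at 48. Against saline 6 as control, 1 was at least 2-fold lower on IL-13 48. The shares of all tested probe sets past these other rules were not counted, so these member counts have no background beside them. The cause of the changes between settings was not tested.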
